A study of Rattus norvegicus with 30 samples.

Results

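The genes of the sterol regulatory element-binding protein (SREBP) processing pathway were followed in rat cortical neuron cultures that expressed a toxic form of human α-synuclein. They were taken by symbol and comprise the factors Srebf1 and Srebf2, the escort Scap, the retention proteins Insig1 and Insig2, the site proteases Mbtps1 and Mbtps2, and the endoplasmic reticulum (ER) ubiquitin ligases Rnf145 and Rnf139. All 9 were found among the 32883 genes of the table and all 9 were among the 12911 genes tested, which reached a normalized count of 10 in 5 or more libraries. Primary cultures from embryonic cortex of Sprague Dawley rats were given AAV9 on day 5 in vitro, and RNA was sequenced 6, 12 and 19 d later. The vector carried either no insert (EV) or αSyn 3K, human αSyn with 3 glutamate residues changed to lysine, under the CAG promoter, which is not restricted to neurons. Titles of both treatments also carry the word PBS. Each of the 6 groups had 5 libraries. The sources used here do not say whether replicates were separate cultures, so p-values measure the spread between these libraries, which may be technical.

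SREBP-1 and SREBP-2 are made as precursors in the ER membrane, where SCAP holds them and, when sterols are plentiful, INSIG proteins keep the complex in place. When sterols fall, SCAP escorts the precursor to the Golgi, site-1 protease (Mbtps1) and site-2 protease (Mbtps2) release its N-terminal part, and this part enters the nucleus and switches on genes of cholesterol synthesis (mainly SREBP-2) and fatty acid synthesis (mainly SREBP-1). Insig1 and Srebf2 are themselves SREBP targets, and Srebf1 is a target of the liver X receptor (LXR). In mouse liver, RNF145 is an LXR-induced ligase that acts on SCAP. RNF139 (TRC8) is an ER ligase that works with INSIG proteins in degrading HMG-CoA reductase. All values below are mRNA levels, and cleavage of SREBP was not measured.

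Promoter windows are shown for the 4 genes whose mRNA turned out to differ most between treatments, because Srebf2 and Insig1 are known targets of the pathway that they serve. RefSeq (build GRCr8) gave windows for 8 of the 9 genes, each the 250 bases before a transcription start. Capitals mark 3 motifs searched on both strands. The sterol regulatory element core was searched as TCACNCCA, and the E-box, a site of basic helix-loop-helix factors, as CACGTG. The NF-Y box, to which a common cofactor of SREBP binds, was searched as CCAAT, which reads as its complement where it lies on the opposite strand. The Srebf2 window is chr7:115543057-115543306 (plus strand), that of Insig1 chr4:8057770-8058019 (minus strand), that of Srebf1, at the second of its listed starts, chr10:45519011-45519260 (minus strand), and that of Rnf145 chr10:29507529-29507778 (plus strand).
Srebf2: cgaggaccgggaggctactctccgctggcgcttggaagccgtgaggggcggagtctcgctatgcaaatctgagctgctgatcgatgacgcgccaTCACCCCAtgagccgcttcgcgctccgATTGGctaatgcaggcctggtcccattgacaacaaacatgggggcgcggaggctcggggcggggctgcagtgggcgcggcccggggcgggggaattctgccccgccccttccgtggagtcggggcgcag
Insig1: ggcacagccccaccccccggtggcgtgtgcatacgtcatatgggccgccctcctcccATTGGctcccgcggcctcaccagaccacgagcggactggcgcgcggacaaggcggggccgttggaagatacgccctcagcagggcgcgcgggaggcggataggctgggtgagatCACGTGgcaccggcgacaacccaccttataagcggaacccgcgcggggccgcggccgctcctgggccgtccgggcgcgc
Srebf1: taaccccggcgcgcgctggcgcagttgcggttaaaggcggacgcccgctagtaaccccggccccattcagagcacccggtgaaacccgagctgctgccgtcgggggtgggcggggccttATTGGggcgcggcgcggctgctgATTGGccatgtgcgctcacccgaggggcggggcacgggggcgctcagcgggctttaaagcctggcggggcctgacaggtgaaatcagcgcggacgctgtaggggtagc
Rnf145: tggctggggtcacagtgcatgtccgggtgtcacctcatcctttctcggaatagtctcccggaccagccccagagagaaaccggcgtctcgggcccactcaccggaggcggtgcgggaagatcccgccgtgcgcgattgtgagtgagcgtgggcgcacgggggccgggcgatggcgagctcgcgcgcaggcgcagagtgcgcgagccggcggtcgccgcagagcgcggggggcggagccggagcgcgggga
The Srebf2 window held TCACCCCA at bases -156 to -149 from the start and an NF-Y box at -129 to -125. The Insig1 window held an E-box at -79 to -74 and an NF-Y box at -193 to -189. The Srebf1 window held NF-Y boxes at -131 to -127 and -108 to -104, and that of Rnf145 held none of these letters. At the first listed start of Srebf1, not shown, the window held an NF-Y box at -169 to -165. Over all 33469 rat windows of this length, 3.24% held TCACNCCA, 5.59% an E-box and 34.0% an NF-Y box, so the NF-Y box is common. Of known SREBP-2 targets with a window, 1 of 15 held TCACNCCA, 1 an E-box and 12 an NF-Y box. Of 13 known SREBP-1 targets with a window, 0 held TCACNCCA, 1 an E-box and 9 an NF-Y box. The search for TCACNCCA thus did not mark known targets, and its absence does not set a gene apart. The NF-Y box had a larger share in both target lists than over all windows, which was not tested. It was also in 8 of 13 windows of other ER ligases and degradation factors, and in 3 of 14 of the LXR list. Of the remaining members with a window, Scap held an E-box at -50 to -45 and Insig2 an NF-Y box at -61 to -57, while those of Mbtps1 and Mbtps2 held none. These matches describe letters only.

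Reads recovered over genes ranged from 4747019 to 7035869 per library. The αSyn 3K vector rose with day in 3K libraries. Its normalized count was 3801 to 4789 at 6 d, 8080 to 9302 at 12 d and 22901 to 28883 at 19 d. In EV libraries it was 84.2 to 249.8, so that each library matched its label. Neuron marker genes summed to between 23420.0 and 26711 in all 30 libraries, whereas microglia and endothelial markers summed to at most 18.7 and 9.78. At 19 d the neuron sum was 25488 to 26711 in EV and 23701 to 24484 in 3K, which did not overlap, and the astrocyte sum was 55546 to 61147 in EV and 48630 to 56461 in 3K. At that day limma called 4.08% of all genes lower and 3.78% higher. Of neuron markers it called 2 of 10 lower and none higher, of astrocyte markers 4 of 10 lower and none higher, and of progenitor markers 1 of 6 lower and 2 higher. The astrocyte markers differed among themselves, with log2 differences from -0.52 to 0.62 and a median of -0.083. Among 3K libraries at 19 d, replicate 4 stood apart with a progenitor marker sum of 1027 beside 1464 to 1603 in the others, and it had the lowest astrocyte sum (48630, beside 52244 to 56461). At 19 d the mitochondrial share of reads was 4.21% ± 0.276 in EV and 4.78% ± 0.297 in 3K (SD, n = 5). In such bulk RNA, fewer cells of a type and less RNA per cell cannot be told apart.

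Rnf145 was higher in 3K than in EV at every day, and the groups never overlapped, as was the case for 0.767%, 1.05% and 3.1% of all genes on the higher side at 6, 12 and 19 d. Its normalized counts at 6 d were 647, 695, 699.6, 650.5 and 739 in EV and 975, 903, 856, 960.3 and 1053 in 3K. At 12 d they were 577, 573, 548, 556 and 587 in EV and 746, 719.5, 782, 851 and 825 in 3K. At 19 d they were 615, 579.9, 585, 578 and 539 in EV and 1088, 1141, 1006, 966 and 1123 in 3K. The lowest 3K library was thus above the highest EV library on each day, and the gap was widest at 19 d. The mean rose from 686 ± 38.2 to 949 ± 74.8 at 6 d (38.4% higher), from 568 ± 15.9 to 785 ± 54.3 at 12 d (38.2%) and from 579.5 ± 26.9 to 1065 ± 76.1 at 19 d (83.8%; SD, n = 5). On the scale of log2(normalized count + 1), on which limma was fitted and all log2 differences are given, these differences were 0.47 (SE 0.055, adjusted p = 9.2e-06), 0.46 (adjusted p = 4.1e-06) and 0.88 (adjusted p = 7.2e-13). By p-value Rnf145 ranked 2 at 6 d, 5 at 12 d and 3 at 19 d among all genes tested. The study itself singled out Rnf145 from these same libraries, so its rank is not independent evidence. An exact permutation test gave p = 0.0079 on each day, the smallest that 5 against 5 libraries can give. All 41 alternative settings, which include leaving out each of the 30 libraries, kept the call at each day.

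**Figure D1:**
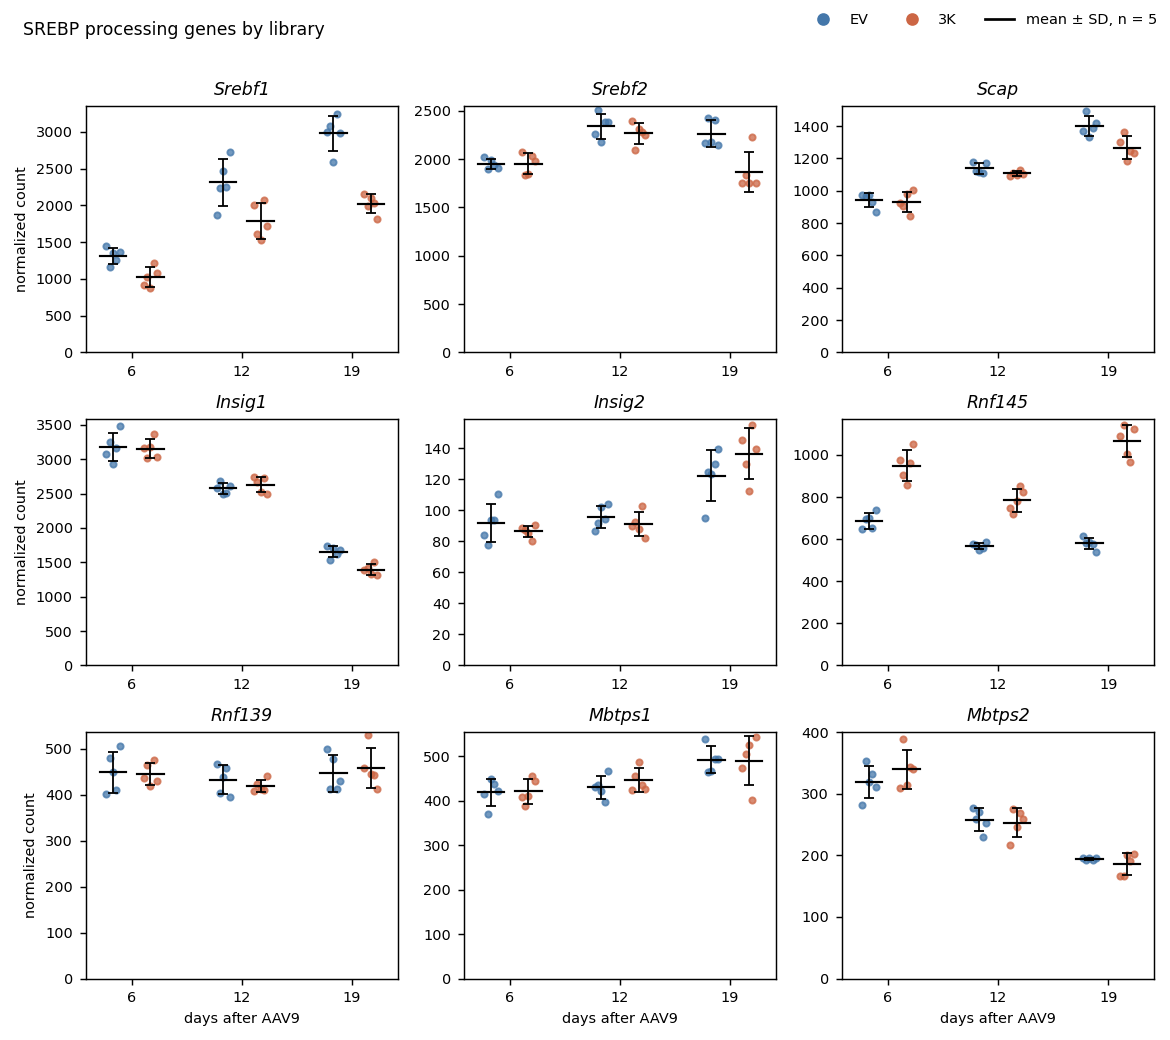
Normalized counts of the 9 genes (vertical axes from 0) by days after AAV9; points are libraries of EV (blue) and 3K (orange), and bars are the mean ± SD of 5 libraries. The points of Rnf145 separate on every day, those of Srebf1 and Insig1 at 19 d, and 1 library of 3K at 19 d stands above the others in Srebf2 (2230.3).

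The difference in Rnf145 also grew with time. In limma's interaction contrast it was larger at 19 d than at 6 d by 0.41 (SE 0.078, adjusted p = 0.0029) and larger than at 12 d by 0.41 (SE 0.078, adjusted p = 0.0080). These contrasts share the libraries of 19 d. The αSyn 3K vector count rose over the same days, and its part in the growth was not tested. Between 12 d and 6 d it differed by -0.0025 (SE 0.078). In that contrast no member passed the threshold, none had an unadjusted p under 0.05, and neither edgeR nor DESeq2 called any. Of all genes limma called 0.0%, with 636 at an unadjusted p under 0.05, edgeR called 0 and DESeq2 called 4. The courses of the treatments parted after 12 d. In EV, Rnf145 fell by 17.2% between 6 and 12 d (adjusted p = 0.00016 in limma, which called 44.5% of all genes there) and its level at 19 d was 579.5 against 568 at 12 d (adjusted p = 0.71, 45.4% of all genes called). In 3K it fell by 17.3% between 6 and 12 d (adjusted p = 0.00015, 42.4% called) and then rose by 35.7% between 12 and 19 d (adjusted p = 7.6e-08, 45.8% called). From lowest to highest, the group means ran EV at 12 d, EV at 19 d, EV at 6 d, 3K at 12 d, 3K at 6 d and 3K at 19 d. Within this order EV at 19 d overlapped EV at 12 d, 3K at 12 d overlapped EV at 6 d, and 3K at 19 d overlapped 3K at 6 d, while the other neighbours did not overlap.

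The SREBP-1 gene Srebf1 was lower in 3K, and the difference passed the test at 19 d. There its normalized counts were 2999, 3078, 2589, 3237 and 2989 in EV and 2159, 1994, 2107, 2039 and 1820.2 in 3K. Every 3K library lay below every EV library. The mean fell by 32.1%, from 2978 ± 239 to 2024 ± 130.1 (SD, n = 5), a log2 difference of -0.56 (SE 0.091, adjusted p = 9.6e-05 in limma). At 6 d the values were 1445, 1161, 1353, 1252 and 1360.3 in EV and 922, 1019, 876, 1219 and 1079.7 in 3K. At 12 d they were 1873, 2237, 2471, 2256 and 2720.3 in EV and 1999.7, 1604, 1522, 2077 and 1726 in 3K. At both days the groups overlapped, through 3K replicate 4 at 6 d and through EV replicate 1 and 3K replicates 1 and 4 at 12 d. The log2 differences were -0.37 at 6 d (adjusted p = 0.090) and -0.37 at 12 d (adjusted p = 0.055), which missed the threshold in limma. Without 3K replicate 4 the difference at 6 d was -0.43 (adjusted p = 0.030), and without EV replicate 1 that at 12 d was -0.44 (adjusted p = 0.011). The call at 12 d was also gained without 3K replicate 1 or 4 of that day, EV replicate 2 of 6 d, or 3K replicate 3 or 4 of 6 d. The difference at 19 d was not shown to exceed that at 6 d (-0.19, SE 0.13, adjusted p = 0.59). The table gives 1 value per gene and does not separate the start sites of Srebf1. Of the astrocyte markers Aldoc (-0.52), Aldh1l1 (-0.35), Glul (-0.33) and S100b (-0.22) were also called lower in 3K at 19 d, while Gfap (0.62), Sox9 (0.10) and Gja1 (0.048) had differences above 0 that were not called. The neuron markers Snap25 (-0.20) and Slc17a7 (-0.11) and the progenitor marker Hes5 (-0.79) were called lower, and the progenitor markers Vim (0.76) and Nes (0.48) higher. The proliferation genes Mki67 and Top2a and the progenitor gene Pax6 of the same list were not called. The part of these cell types in the result was not tested.

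The SREBP-2 gene Srebf2 was called lower in 3K at 19 d and was not called at 6 or 12 d. Its normalized counts then were 2172, 2425, 2180.1, 2405 and 2142 in EV and 1758, 1837, 1751, 2230.3 and 1753 in 3K. Replicate 4 of 3K lay among the EV libraries, while the other 3K libraries were all below them. The mean fell by 17.6%, from 2265 ± 138 to 1866 ± 207 (SD, n = 5), a log2 difference of -0.28 (SE 0.054, adjusted p = 0.00077 in limma). Without 3K replicate 4 it was -0.35 (adjusted p = 4.6e-06). At 6 d the log2 difference was 0.0017 (95% interval -0.11 to 0.11) and at 12 d it was -0.046 (-0.16 to 0.065). From 6 to 19 d the difference shifted by -0.29 (SE 0.077), with an adjusted p of 0.052 that missed the threshold. Without 3K replicate 4 at 19 d this contrast was -0.35 (adjusted p = 0.0015), and it was also called without EV replicate 5 of 19 d or without 3K replicate 2 or 3 of 6 d. Of the 11 other settings, 5 called it as well, with adjusted p-values of 0.049 (pseudocount of 5), 0.045 (a minimum of 50), 0.049 (equal upper quartiles), 0.040 (replicate block) and 0.021 (DESeq2).

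Scap, the escort of both factors, was slightly lower at 19 d. Its normalized counts were 1371, 1493, 1332, 1390.3 and 1421 in EV and 1304, 1365, 1187, 1244 and 1236 in 3K. Replicate 2 of 3K overlapped the EV libraries. The mean fell by 9.58%, a log2 difference of -0.15 (SE 0.044, adjusted p = 0.034 in limma). This call was lost without any of EV replicates 2, 4 and 5 or 3K replicates 3, 4 and 5 at 19 d, with adjusted p-values up to 0.12. It was also lost when libraries were rescaled to equal totals (-0.12, adjusted p = 0.097), when the mitochondrial share entered as a covariate (adjusted p = 0.064) or when only the compared groups were fitted (adjusted p = 0.088). At 6 and 12 d the log2 differences were -0.016 and -0.041, both within 1 SE of 0.

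Insig1, the gene of the sterol-regulated retention protein, was lower in 3K at 19 d, with normalized counts of 1739, 1536, 1703, 1624 and 1684 in EV and 1395, 1424, 1327, 1503 and 1316 in 3K. The highest 3K library was just below the lowest EV library. The mean fell by 15.9%, from 1657 ± 79.7 to 1393 ± 76.5 (SD, n = 5), a log2 difference of -0.25 (SE 0.044, adjusted p = 0.00025 in limma). At 6 d its values of 2938 to 3480.3 in EV and 3013 to 3371 in 3K overlapped, as did those of 2495 to 2683 and 2494 to 2743 at 12 d, with log2 differences of -0.011 and 0.030. The change in this difference was -0.24 from 6 to 19 d (SE 0.062, adjusted p = 0.040) and -0.28 from 12 to 19 d (SE 0.062, adjusted p = 0.029). Both contrasts lay near the threshold. The contrast with 6 d lost its call in 13 of the 30 fits that left out 1 library, with adjusted p-values up to 0.086, namely EV replicates 1, 3 and 4 and 3K replicates 1, 3 and 4 of 6 d, and EV replicates 1, 3, 4 and 5 and 3K replicates 1, 3 and 5 of 19 d. The contrast with 12 d lost it in 9, with adjusted p-values up to 0.070, namely EV replicates 1, 3 and 4 and 3K replicates 1 and 4 of 12 d, and EV replicates 1 and 3 and 3K replicates 3 and 5 of 19 d. Insig2, which encodes a related retention protein, had few reads, with normalized counts between 77.6 and 155 in all libraries. At 19 d its values were 95.4, 125, 124, 129.7 and 139 in EV and 146, 130.2, 112, 155 and 139.8 in 3K. They overlapped, and the log2 difference was 0.16 (95% interval -0.046 to 0.36, adjusted p = 0.41 in limma). It was -0.080 at 6 d and -0.072 at 12 d, below 1 SE.

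Neither site protease nor the ligase Rnf139 was called at any day, and their groups overlapped on each. Mbtps1, which also cuts other membrane-bound factors such as ATF6, had 464 to 540.1 in EV and 403 to 545 in 3K at 19 d. Its log2 difference was -0.0097 (95% interval -0.15 to 0.13). Mbtps2, which makes the second cut, had 192 to 196 in EV and 166 to 203 in 3K at 19 d, a log2 difference of -0.068 (-0.22 to 0.084). Rnf139 had 412 to 499.8 in EV and 413 to 529.6 in 3K, a difference of 0.036 (-0.10 to 0.18). The EV libraries of Mbtps2 were close together, with an SD of 1.88 against 17.8 in 3K. At 6 and 12 d these 3 genes had log2 differences between -0.043 and 0.087. A change of the size seen in Rnf145 at 19 d (0.88) lay outside each of these intervals. A smaller one, such as that called in Scap (-0.15), lay inside that of Mbtps2 and at the edge of that of Mbtps1.

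**Figure D2:**
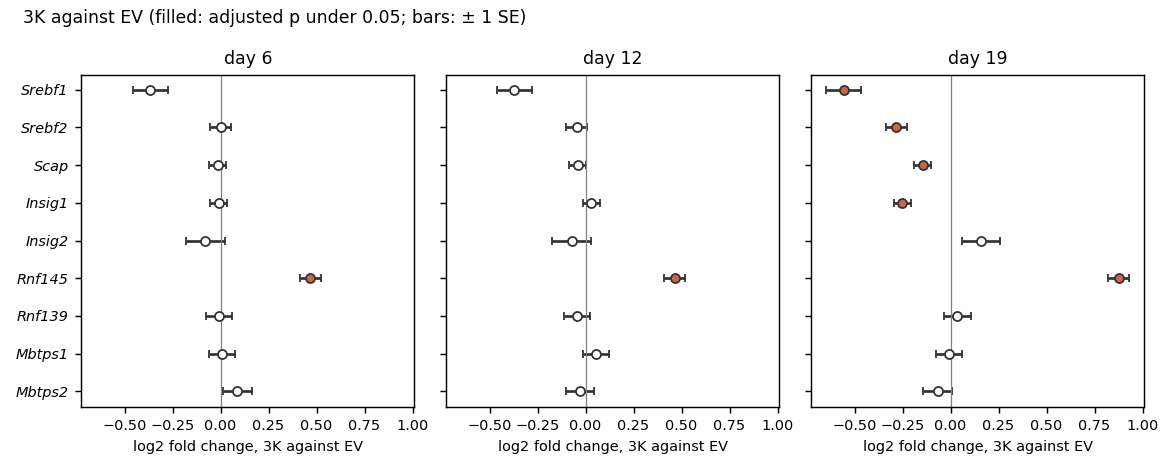
Log2 difference between 3K and EV for each gene at 6, 12 and 19 d, with bars of ± 1 SE from limma; filled points had an adjusted p under 0.05. Rnf145 is filled on each day, and Srebf1, Srebf2, Scap and Insig1 join it on the lower side at 19 d.

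By count, limma called 1 of the 9 genes at 6 d and 1 at 12 d, in each case Rnf145, when 0.225% and 0.434% of all genes tested were called (0.139% and 0.178% as higher). At 19 d it called 5 of the 9, with 1 higher and 4 lower, when 7.86% of all genes were called (3.78% higher and 4.08% lower). At 19 d the groups did not overlap for 1 gene that was higher and 2 that were lower, against 3.1% and 3.56% of all genes. The median log2 difference of the 9 genes at 19 d was -0.068, beside -0.0031 over all genes tested. In the contrast of 19 d against 6 d, 2 of the 9 were called (Rnf145 and Insig1), when 1.51% of all genes were, and in that of 19 d against 12 d again these 2, when 0.542% were. Since 19 d held many more called genes than the earlier days, the share of members there has to be read against that larger background.

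Most of these genes also changed with culture age. From 6 to 19 d in EV, limma called 8 of the 9, with 5 higher and 3 lower, at a time when 65.1% of all genes were called (32.9% higher and 32.2% lower), so this share is not particular to the pathway. Srebf1 rose by 127% (log2 1.18, SE 0.091), and Scap rose by 48.8% (0.57), Insig2 by 33.2% (0.41), Mbtps1 by 17.5% (0.23) and Srebf2 by 16.2% (0.21). Insig1 fell by 47.9% (-0.94, SE 0.044), Mbtps2 fell by 39.2% (-0.71) and Rnf145 fell by 15.5% (-0.24). Rnf139 had a log2 difference of -0.0068 (95% interval -0.15 to 0.13). The factor genes and their target Insig1 thus ran in opposite directions with age. Srebf1 rose mostly before 12 d (0.81) and less after it (0.37), whereas Insig1 fell by 0.30 on the log2 scale before 12 d and by 0.64 after it. Srebf2 rose by 20.2% to 12 d and then held, with a log2 difference of -0.049 from 12 to 19 d (adjusted p = 0.49 in limma). Over the same time the astrocyte marker sum rose from 17804 to 19896 at 6 d to 55546 to 61147 at 19 d in EV, and 8 of 10 astrocyte markers were called higher and none lower. Neuron markers had 5 of 10 called higher and 3 lower, oligodendrocyte lineage markers 3 of 8 higher and 4 lower, and progenitor markers 2 of 6 higher and 3 lower, beside the 32.9% and 32.2% of all genes. The part of these cell types in the results on age was not tested.

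In 3K from 6 to 19 d, limma called 7 of the 9, with 5 higher and 2 lower, when 63.4% of all genes were called. Srebf1 (0.99) rose by 97.8%, and Scap (0.44), Insig2 (0.65) and Mbtps1 (0.21) also rose. Insig1 fell by 55.8% (-1.18) and Mbtps2 fell by 45.3% (-0.87). The log2 difference of Srebf2 between 6 and 19 d was -0.071 in 3K (adjusted p = 0.26) against 0.21 in EV. After 12 d Srebf2 fell by 17.7% in 3K (adjusted p = 6.1e-05). Rnf145 was 12.2% higher at 19 d than at 6 d in 3K (adjusted p = 0.0095), though the groups overlapped. The comparisons of age and of treatment share the libraries of 19 d, so they are given side by side only.

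**Figure D3:**
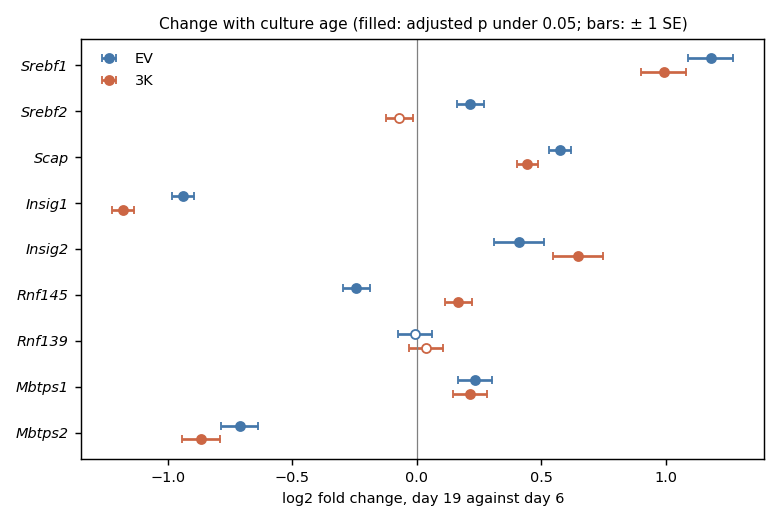
Log2 difference between 19 d and 6 d for each gene in EV (blue) and 3K (orange), with bars of ± 1 SE from limma; filled points had an adjusted p under 0.05. Srebf1 lies farthest to the right in both treatments and Insig1 farthest to the left, while Rnf145 is on the left in EV and on the right in 3K.

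Genes that the pathway controls were taken from lists of known SREBP-2 and SREBP-1 targets. Of 22 tested SREBP-2 targets of cholesterol synthesis and uptake, 15 were called lower at 19 d and none higher, when 4.08% of all genes were called lower and 3.78% higher, and their median log2 difference was -0.30. At 6 and 12 d limma, edgeR and DESeq2 called none of them, and 0 and 4 had an unadjusted p under 0.05. With only the compared groups fitted, limma called 1 of them lower at 12 d. Fdft1 (squalene synthase) had 1416 ± 57.9 in EV and 1018 ± 101.7 in 3K at 19 d (SD, n = 5), a log2 difference of -0.48. Cyp51 (lanosterol demethylase) had 2163 ± 119.6 and 1652 ± 79.5 (-0.39), and Acat2 (cytosolic acetoacetyl-CoA thiolase) had 465 ± 18.0 and 328 ± 27.5 (-0.51). For all 3, which were chosen by their small adjusted p, the groups did not overlap, as was so for 3.56% of all genes on the lower side. In limma's contrast of 19 d against 6 d the difference was called more negative for 10 of the 22 and more positive for none. Of all 12911 genes, 100 were called more negative and 95 more positive there. These targets, like Insig1, also fell with age, and 21 of 22 were called lower at 19 d than at 6 d in EV (median -0.94), when 32.2% of all genes were.

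Of 15 tested SREBP-1 targets of fatty acid synthesis, 9 were called lower at 19 d and none higher, against 4.08% and 3.78% of all genes, with a median of -0.32 and a range of -1.73 to 0.18. Without EV replicate 5 of 19 d, 2 were called higher. Scd (stearoyl-CoA desaturase) had 261.8 to 499.0 in EV and 141 to 178 in 3K, a log2 difference of -1.03. Its paralog Scd2, with which reads could be exchanged, had 34957 to 39400.5 and 27403 to 32305 (-0.32). Fads1 (delta-5 desaturase) had 2237 to 2479.7 and 1679 to 1942 (-0.37). None of these ranges overlapped, but these genes too were chosen by their small adjusted p. At earlier days 1 was called lower at 6 d and 3 at 12 d, when 11 and 33 of all 12911 genes were. These counts for the list ranged from 0 to 3 and from 0 to 4 over the alternatives. The lists hold genes that the study named from these same libraries, Scd among them, and are not independent evidence of direction.

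In lists on other sides of the pathway few genes were called at 19 d, in shares to be read against the 7.86% of all genes called. Of 11 tested LXR receptors and targets, 1 was higher, the cholesterol exporter Abca1 (0.56, adjusted p = 0.0031 in limma), and 1 lower, Lpcat3 (-0.18, adjusted p = 0.049), and the median was -0.043. Abca1 had 494 to 708 in EV and 617 to 1153 in 3K, which overlapped. The call of Lpcat3 was lost in 31 of 41 alternatives. Of 18 tested other ER ligases and degradation factors, Ube2g2, a ubiquitin-conjugating enzyme, was higher (0.21) and the segregase Vcp lower (-0.082), beside 0.88 for Rnf145, and the list ranged from -0.10 to 0.21. Ube2g2 lost its call without EV replicate 1, 2 or 4 or 3K replicate 1, 2 or 3 of 19 d, and Vcp in 15 of 41 alternatives. None of 11 tested genes of the COPII coat, which carries SCAP and SREBP out of the ER, was called by limma (2 had an unadjusted p under 0.05, and alternatives called 0 or 1). Of 7 other substrates of the site proteases Creb3l1 was lower (-0.62, adjusted p = 0.013), with an adjusted p of 0.052 without EV replicate 2 of 19 d. Of 12 other regulators of SREBP Mtor was lower (-0.21), a call lost without EV replicate 1, 4 or 5 or 3K replicate 2, 3 or 4 of 19 d. With age in EV from 6 to 19 d, 10 of 11 genes of the LXR list were called higher (median 1.27), whereas SREBP-1 targets had 3 called higher and 8 lower (median -0.48), beside 32.9% of all genes called higher and 32.2% lower.

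**Figure D4:**
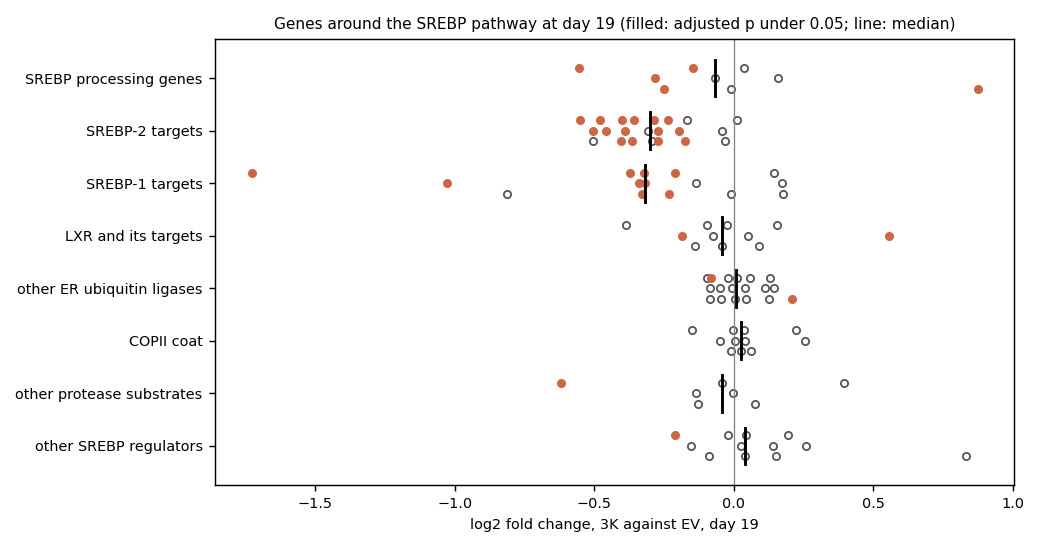
Log2 difference between 3K and EV at 19 d (horizontal axis) for the genes tested in each list; filled points had an adjusted p under 0.05 in limma, and vertical lines are the medians. Called genes are concentrated below 0 for SREBP-2 targets (15 of 22) and SREBP-1 targets (9 of 15), and Rnf145 is the filled point at 0.88 among the processing genes.

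Library by library, the SREBP-2 targets were set beside Srebf2, in which a single 3K library stood apart. The mean log2 level of the 22 targets at 19 d was 9.11, 9.13, 9.16, 9.20 and 9.20 in EV and 8.87, 8.83, 8.81, 9.04 and 8.74 in 3K. Replicate 4 of 3K, the library with the high Srebf2, was the highest of its group here too, yet stayed below the EV libraries. It was also the highest of its group in Insig1 (1503) and the lowest in Rnf145 (966), and it was the library with the lowest astrocyte and progenitor marker sums among 3K at 19 d, whose part in these values was not tested. After each group's mean was subtracted, the median correlation of Srebf2 with these targets over 30 libraries was 0.38, positive for 21 of 22, and that of Insig1 was 0.34, positive for 21 of 22. That of Mbtps1 was -0.30 (3 of 22), of Insig2 0.20 (19 of 22), of Rnf145 -0.19 (4 of 22) and of Scap -0.15 (3 of 22), and those of the remaining members lay between -0.036 and 0.087, while the median of Srebf2 with all genes tested was 0.011. Without 3K replicate 4 of 19 d these values were 0.098 for Srebf2 (14 of 22), 0.26 for Insig1 (19 of 22), 0.024 for Mbtps1 (12 of 22), 0.041 for Insig2 (13 of 22), -0.044 for Rnf145 (7 of 22) and -0.12 for Scap (5 of 22), so those of Srebf2, Mbtps1, Insig2 and Rnf145 rested largely on that library. All genes of a library share its size factor and preparation, so these correlations are descriptions only.

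The genes whose pattern was most like that of Rnf145 were sought among 9803 genes with a mean normalized count of at least 50, by correlation over 30 libraries after each day's mean was subtracted. The highest were Lpcat1 (r = 0.96), Rgs4 (0.93), Bdnf (0.92), Tmem50b (0.91) and Nr4a2 (0.91), and the lowest were Acsbg1 (-0.90), Rgcc (-0.90) and Fads1 (-0.89). Like Rnf145, the genes Lpcat1, Rgs4, Acsbg1 and Rgcc are among the study's own top genes from these same libraries, so their likeness is not independent evidence. After each group's mean was subtracted the correlations were weaker, from -0.085 for Tmem50b to 0.30 for Nr4a2 among the 5 highest, with 0.053 for Lpcat1, and -0.25 for Acsbg1, -0.39 for Rgcc and -0.13 for Fads1. Lpcat1, a lysophosphatidylcholine acyltransferase, differed by 0.56, 0.72 and 1.22 on the log2 scale at 6, 12 and 19 d, beside 0.47, 0.46 and 0.88 for Rnf145. For Insig1 the highest were Fdps (0.82), Msmo1 (0.81), Cyp51 (0.81), Dhcr7 (0.75) and Tcea2 (0.75), of which Fdps, Msmo1, Cyp51 and Dhcr7 are enzymes of sterol synthesis on the SREBP-2 list. After each group's mean was subtracted, r was 0.60 for both Fdps and Msmo1, 0.54 for Tcea2, 0.52 for Cyp51 and 0.34 for Dhcr7. The lowest for Insig1 were Vim (-0.74), Zdbf2 (-0.73) and Elmsan1 (-0.71), with -0.43, -0.54 and -0.52 within groups. The correlation by which these genes were chosen includes the spread within groups, so the values within groups are not separate support. Among the 9 genes themselves, correlations after each group's mean was subtracted were weak, between -0.34 for Srebf2 with Mbtps1 and 0.36 for Insig1 with Rnf139.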

How the data were processed

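RNA was converted to cDNA with the SMART-Seq v4 kit, and Nextera XT libraries were sequenced. The authors aligned reads with STAR 2.5.2b to Rnor_6.0 plus the vector sequence and counted them with RSEM 1.2.31. The deposited signal values are these counts after division by each library's DESeq2 size factor (0.801 to 1.18). All values (100%) were whole reads within 0.01 of a read, so reads were recovered, and on them edgeR 4.0.16 called 506 genes higher and 564 lower at 19 d. Reads of amplified cDNA are not independent molecules, and few reads limit precision. The main test was limma 3.58.1 (R 4.3.3) on log2(normalized count + 1) with 6 group means, a trended prior and two-sided Benjamini-Hochberg adjusted p-values over 12911 of 20634 genes with any read, at a threshold of 0.05. Intervals are at 95%. It was tested on simulated data.

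Alternatives were edgeR, DESeq2 1.42.0, pseudocounts of 0.5 and 5, no filter, a minimum of 50, equal totals, equal upper quartiles, the compared groups alone, a replicate block, the mitochondrial share as a covariate, and leaving out each library. Correlations without 3K replicate 4 of 19 d were added after seeing the data. All 9 genes are named. From each of 7 lists with 102 genes (3 unmatched by symbol), up to 3 called genes per direction with the smallest adjusted p at 19 d are named, and likeness names the 5 highest and 3 lowest correlations. The members and lists were chosen with earlier results of these data known. RefSeq promoters (GRCr8) were matched by symbol, and no window for Rnf139 was used here. Python 3.11.15 was used.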

Additional observations from a re-analysis of the deposited data

Results flagged for a closer look

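Of 54 groups of 5 libraries, 1 held a library far from the others, where chance gives about 1 in 20. In Srebf2 at 19 d, replicate 4 of 3K had a normalized count of 2230.3 and the next library 1837, a gap of 0.821 of the group's range. The difference between 3K and EV itself differed between days in 2 genes. For Rnf145 it was larger by 0.41 on the log2 scale at 19 d than at 12 d (adjusted p = 0.0080 in limma) and by 0.41 than at 6 d (adjusted p = 0.0029). For Insig1 it was more negative at 19 d, by -0.28 against 12 d (adjusted p = 0.029) and by -0.24 against 6 d (adjusted p = 0.040). Both kinds of contrast use the same libraries of 19 d, and the causes were not tested.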

How the results depend on the processing

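The calls of Rnf145 at each day, of Srebf1, Srebf2 and Insig1 at 19 d, and of 8 genes with age in EV held in all 41 alternatives. For Rnf145 at 19 d the log2 difference ranged from 0.85 to 0.91. At 12 d, 2 members were called with a minimum of 50 or with DESeq2, and 1 to 2 when a library was left out, Srebf1 being the addition. At 6 d, 1 to 2 were called when a library was left out. The count of members whose difference changed from 6 to 19 d was 1 without a filter, with equal totals or with the compared groups alone, and 1 to 3 when a library was left out, through Insig1 and Srebf2. Srebf2 was added with a pseudocount of 5, a minimum of 50, equal upper quartiles, the replicate block or DESeq2. Signs changed only for log2 differences near 0. Srebf2 at 6 d was -0.000567 with equal totals and -0.0020 with equal upper quartiles. Mbtps1 at 19 d was 0.017 with equal totals and 0.031 with the mitochondrial covariate, and its change from 6 to 19 d was 0.0096 with equal totals. Leaving out libraries moved it from -0.049 to 0.059 at 19 d, from -0.034 to 0.038 at 6 d and from -0.059 to 0.050 for the change. In the same fits Rnf139 ran from -0.047 to 0.036 at 6 d, from -0.018 to 0.078 at 19 d, from -0.011 to 0.085 for the change and from -0.049 to 0.037 with age in EV. Insig1 ran from -0.039 to 0.023, Scap from -0.045 to 0.019 and Srebf2 from -0.020 to 0.024 at 6 d, and Mbtps2 from -0.070 to 0.026 at 12 d. The causes were not tested. With equal totals the split of all genes called at 19 d was 631 higher and 376 lower, against 488 and 527 in the reported fit. At 6 d DESeq2 called 29 higher and 24 lower and the compared groups alone 12 and 2, against 18 and 11, and at 12 d DESeq2 called 32 and 63 and the compared groups alone 35 and 71, against 23 and 33.

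Nothing in the labels ties same-numbered replicates of EV and 3K together. Over 15 same-numbered pairs the correlation of deviations ran from -0.12 to 0.19, with 3 pairs over 0.1, all at 19 d (0.14, 0.16 and 0.19, beside -0.012 and 0.061 for the other pairs of that day), and 6 of 15 EV libraries correlated best with their own number. Since not every pair was over 0.1, the samples were not treated as paired. With replicate number as a block, 1, 1 and 5 members were called at 6, 12 and 19 d, and 3 changed their difference from 6 to 19 d, Srebf2 being added (adjusted p = 0.040 in limma). Small changes between treatments in genes with few reads, such as Insig2, could have been missed with these libraries.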
